A study of Mus musculus with 6 samples.

Results

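The receptor for M-CSF (Csf1r), its ligand M-CSF (Csf1) and 8 genes used as marks of monocytes were followed in LSK cells of Gfi1 knockout and wild-type mice. The 8 are Ccr2, Ms4a6c, Ctss, F13a1, Mpeg1, Cd14, Cx3cr1 and Ly86. Every probe set whose platform annotation gives 1 of these symbols and no other was taken, which gave 18 probe sets of 22626 and 10 genes of 12393. The genes were chosen by their signals on these 6 arrays, with the difference between the groups already known, so that difference is described for them and not tested.

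LSK cells are the lineage-negative, Sca-1-positive, Kit-positive cells of bone marrow, the fraction that holds stem cells and early progenitors. There were 3 arrays from LSK cells of mice labelled Gfi1 knockout and 3 from LSK cells of mice labelled wild type, with samples numbered 5, 7 and 8 in each group. All 6 samples were sorted by flow cytometry and each was hybridised to its own 1-colour Affymetrix array after 2 rounds of amplification from 10 ng of total RNA. The labels give no allele, strain, age or sex and do not say whether mice were pooled, so the spread between these samples may be partly technical. Gfi1 encodes a zinc finger repressor of transcription. Its 1 probe set read 692, 1163 and 1737 on knockout-labelled arrays 5, 7 and 8, against 632, 608 and 723 on the wild-type arrays. The targeted transcript was thus not lower under the knockout label (0.76 ± 0.28 (SE) on the log2 scale, limma adjusted p = 0.148, and 1.10 with 0.0354 without knockout array 5). The labels do not say which part of Gfi1 is deleted, and every direction below rests on the group labels.

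M-CSF binds the receptor tyrosine kinase encoded by Csf1r and supports the survival, growth and differentiation of monocytes and macrophages. Csf1r is transcribed at a low level in stem and early progenitor cells and more strongly as cells commit to the monocyte lineage. Ccr2 lets inflammatory monocytes leave the marrow towards CCL2, and Cx3cr1, the fractalkine receptor, marks patrolling monocytes and tissue macrophages.

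Signals are in arbitrary scanner units on a linear scale. As a guide to dim signals, the brightest of 27 Bacillus control probe sets was read on each array (100.2 to 162), and a signal at or below it is called not above the control level. Differences are knockout-labelled minus wild type on the scale log2(signal + 16), which understates the change of dim probe sets, with the standard error (SE) of a limma fit over all arrays. The 60% brightest probe sets entered the fit, 13575 in all, and a probe set is called when its adjusted p is under 0.05. Of the 18 probe sets of the 10 genes 13 entered the fit, and 5 were too dim. Both Cx3cr1 probe sets were among the 5, so 9 of the 10 genes were covered.

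Across the 13 probe sets that entered, the knockout-labelled arrays had 5 called higher and 0 called lower. They belonged to Csf1r (3 probe sets), Ccr2 and Ms4a6c. Among all probe sets fitted 3.63% were called, 1.44% as higher and 2.19% as lower, and since the genes were chosen with these values known nothing is read from the contrast. The groups did not overlap for 6 of the 13 in the higher direction and for 2 in the lower one, where the background was 11.9% and 12.1%. Within each of the 3 sample numbers the knockout-labelled array was the higher one for 8 of the 13 and the lower one for 2, where the background was 21.8% and 22.8%. The median difference of the 13 was 0.69, beside -0.01 over all probe sets fitted. In bulk RNA, more cells of a kind and more RNA per cell cannot be told apart.

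**Figure D1:**
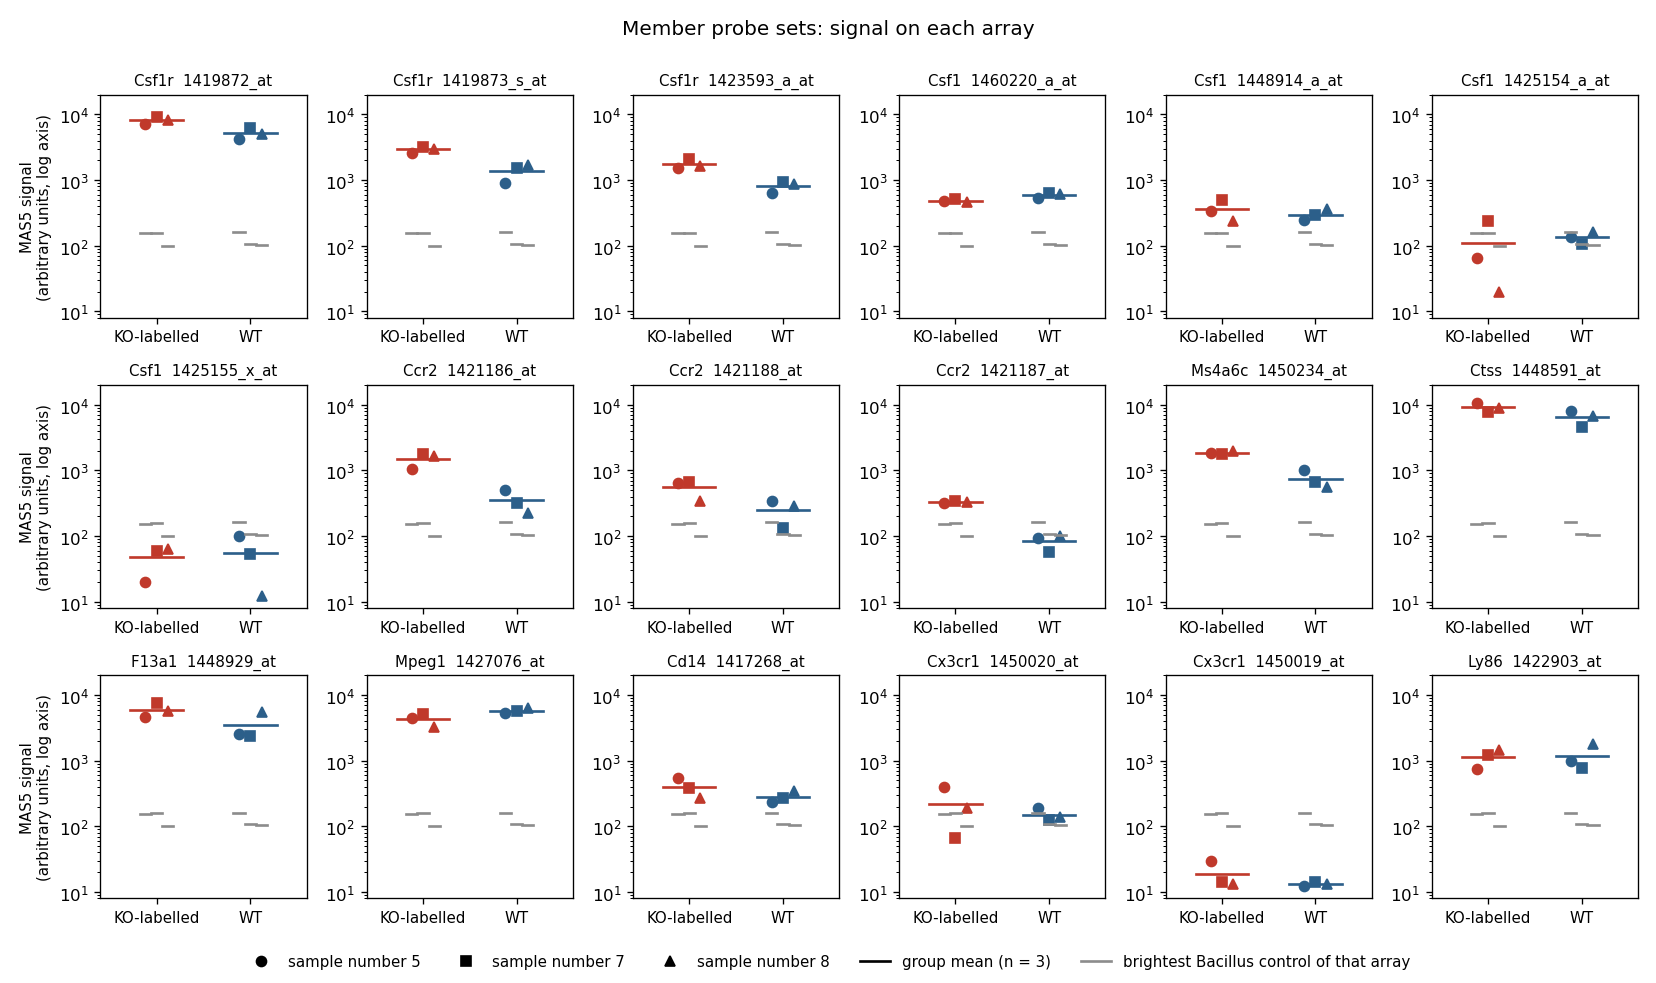
Signal of each of the 18 probe sets on the 6 arrays, in arbitrary units on a log axis, with the knockout-labelled arrays on the left and the wild-type arrays on the right of each panel. Marker shapes give the sample number, coloured lines the group means (n = 3 each) and grey ticks the brightest Bacillus control of each array. The knockout-labelled arrays lie wholly above the wild-type arrays in 7 panels (3 of Csf1r, 3 of Ccr2 and Ms4a6c) and wholly below them in 2 (Csf1 1460220_a_at and Mpeg1).

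The receptor Csf1r was higher in the knockout-labelled arrays by all 3 of its probe sets. The brightest (1419872_at) read 7267, 9252 and 8242 on knockout-labelled arrays 5, 7 and 8, against 4205, 6187 and 5038 on the wild-type arrays. The lowest knockout-labelled value lay above the highest wild-type one, and the difference was 0.69 ± 0.17 (SE). The second (1419873_s_at) read 2608, 3238 and 2947 on knockout-labelled arrays, against 916, 1508 and 1688 on wild-type arrays, a difference of 1.13 ± 0.22 (SE). The third (1423593_a_at) read 1546, 2120 and 1659 on knockout-labelled arrays, against 644, 940 and 873 on wild-type arrays, a difference of 1.11 ± 0.21 (SE). In both cases the groups stood clear of each other.

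The 3 readings of Csf1r also shared details of their order. On each probe set array 7 was the highest knockout-labelled array and array 5 the lowest in both groups. Within sample numbers 5, 7 and 8, the knockout-labelled sample exceeded the wild-type one by 0.79, 0.58 and 0.71 on the brightest probe set. The other two gave 1.49, 1.09 and 0.80, and 1.24, 1.16 and 0.91, so all 9 such differences were positive. With each array left out in turn, the brightest probe set kept its call only without wild type 7, and its difference ranged from 0.56 to 0.83. Each of the 3 other scalings (median centring, quantile, cyclic loess) ended its call too. Both 1419873_s_at and 1423593_a_at lost their calls without knockout array 7 or 8 and kept them without any other single array. With no filter on low values, and with eBayes without trend, the brightest probe set and 1419873_s_at lost their calls and 1423593_a_at kept its own. Of 15 alternatives, the brightest was called in 5, 1419873_s_at in 11 and 1423593_a_at in 13.

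The ligand Csf1 had 4 probe sets, which did not move together. The brightest (1460220_a_at) read 482, 511 and 465 on knockout-labelled arrays, against 527, 641 and 609 on wild-type arrays, a difference of -0.27 ± 0.21 (SE) that was not called although the groups did not overlap. The second (1448914_a_at) read 343, 497 and 240 on knockout-labelled arrays, against 245, 290 and 360 on wild-type arrays, a difference of 0.22 ± 0.30 (SE) with overlapping groups that ran from -0.03 (without knockout array 7) to 0.47 (without knockout array 8). The remaining pair were too dim to enter the fit. One of them (1425154_a_at) was above the control level on 1 knockout-labelled and 1 wild-type array, and the other (1425155_x_at) on none.

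Ccr2, the receptor for the monocyte chemoattractant CCL2, showed the widest gap of the 10 genes. Its brightest probe set (1421186_at) read 1038, 1756 and 1677 on knockout-labelled arrays, against 503, 323 and 224 on wild-type arrays, with means of 1491 ± 394 and 350 ± 141 (SD, n = 3 each). Every knockout-labelled array lay above the highest wild-type one, and the difference was 2.08 ± 0.29 (SE). It was called in all 15 alternatives run, with 1.81 to 2.36 when 1 array was left out. A second probe set (1421188_at) read 653, 659 and 341 on knockout-labelled arrays, against 340, 133 and 284 on wild-type arrays. There knockout array 8 barely cleared wild-type array 5, and the difference of 1.11 ± 0.35 (SE) was not called.

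The dimmest Ccr2 probe set (1421187_at) was above the control level in 1 group only. It gave 316, 346 and 330 on knockout-labelled arrays, all above the control level, against 92.0, 56.8 and 101 on wild-type arrays, all at or below it. It was at least 2.71-fold higher in the knockout-labelled arrays, taking for each wild-type array the higher of its control level and its own signal. The difference within sample numbers 5, 7 and 8 was 1.02, 2.39 and 2.82 on the brightest Ccr2 probe set, 0.91, 2.18 and 0.25 on the second and 1.62, 2.31 and 1.56 on the dimmest. All 9 of these differences were positive, and they too come from 1 gene on the same arrays and are not independent. The second and the dimmest probe set ranked the sample numbers alike, with number 7 highest and 8 lowest, while the brightest had number 8 highest.

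Ms4a6c encodes a 4-pass membrane protein of the MS4A family that is carried by monocytes. Its probe set read 1872, 1777 and 1963 on knockout-labelled arrays, against 1006, 661 and 566 on wild-type arrays. The knockout-labelled values were tightly grouped (SD of 0.07 on the log2 scale) and the wild-type values were not (0.42). The difference was 1.35 ± 0.22 (SE), positive at 0.89, 1.41 and 1.77 within numbers 5, 7 and 8, and it was called in all 15 alternatives.

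**Figure D2:**
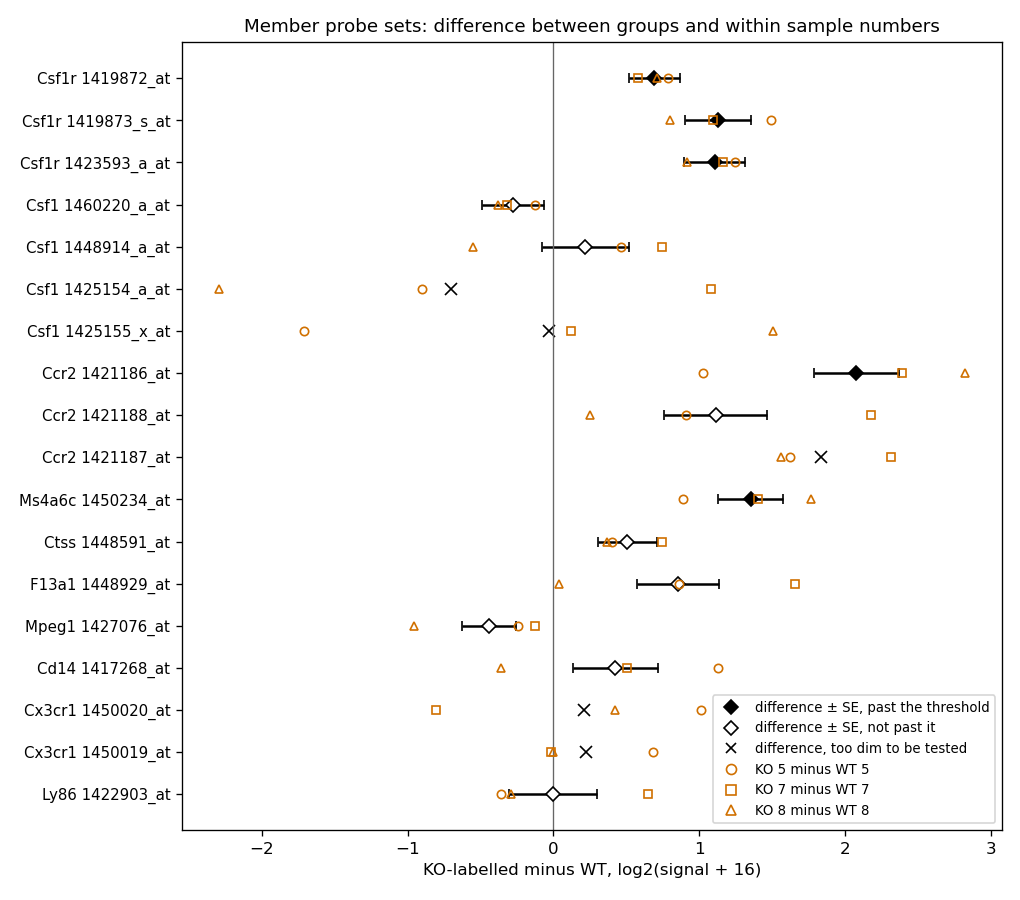
Difference between the groups for each of the 18 probe sets, knockout-labelled minus wild type on the log2(signal + 16) scale. Black diamonds with bars are the fit's difference ± SE (filled where called), crosses are differences of probe sets too dim to enter the fit, and open orange symbols are the differences within sample numbers 5, 7 and 8. All symbols of Csf1r, Ccr2, Ms4a6c, Ctss and F13a1 lie right of 0, and those of Mpeg1 and Csf1 1460220_a_at lie left of it.

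Ctss encodes cathepsin S, a lysosomal cysteine protease that trims the invariant chain in antigen-presenting cells. It read 10755, 7766 and 8785 on knockout-labelled arrays, against 8145, 4624 and 6800 on wild-type arrays. Knockout array 7 lay below wild-type array 5, so the groups overlapped, although the difference was positive within each sample number (0.40, 0.75 and 0.37). At 0.51 ± 0.20 (SE) it was not called, and it ran from 0.28 (without wild type 7) to 0.68 (without wild type 5).

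F13a1, the catalytic chain of coagulation factor XIII, read 4627, 7599 and 5741 on knockout-labelled arrays, against 2544, 2403 and 5582 on wild-type arrays. Wild-type array 8 stood with the knockout-labelled arrays and apart from the other two wild-type ones. The difference of 0.85 ± 0.28 (SE) was not called with all arrays. Without wild type 8 it was 1.24 and was called, the only such change among the 8 uncalled probe sets.

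Ly86, which encodes MD-1, the secreted partner of the Toll-like protein Cd180, showed no difference in either direction on average. It read 760, 1212 and 1452 on knockout-labelled arrays, against 982, 766 and 1776 on wild-type arrays, a difference of 0.00 ± 0.30 (SE) that ran from -0.26 (without wild type 7) to 0.34 (without wild type 8). The highest value of all was on wild-type array 8. F13a1 and Ly86 lie next to each other among the protein-coding genes of chromosome 13, and wild-type array 8 was the highest of its group for both.

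Tissue macrophage markers were read on the same arrays. Of 16 such genes matched, 7 were above the control level on every array and 1 (Marco) on none. Among the 11 in the fit 0 were called (over all genes 1.41% higher and 2.49% lower), and their median difference was 0.40. The summed signal of the 16 was 8383, 24221 and 15853 on knockout-labelled arrays 5, 7 and 8, against 5831, 11103 and 24745 on wild-type arrays. Wild-type array 8 was thus the highest of its group for this sum, as it was for F13a1 and Ly86, and the part of these cells in either reading was not tested. The brightest of these genes, named after their values were seen, were Vcam1 and Slc40a1. Slc40a1, the iron exporter of macrophages that recycle red cells, read 1588, 6185 and 3092 on knockout-labelled arrays, against 1488, 2909 and 6993 on wild-type arrays. Csf1r shared part of this order: its knockout-labelled arrays also ran 7, 8 and 5 from high to low and wild type 5 was its lowest wild-type array, but wild type 8 was its highest on 1 of 3 probe sets only.

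Mpeg1, which encodes the pore-forming protein perforin-2 of macrophages, was the one bright gene of the 10 that lay lower in the knockout-labelled arrays. It read 4521, 5157 and 3278 there, against 5343, 5634 and 6372 on wild-type arrays. The groups did not overlap, by a narrow margin between knockout array 7 and wild-type array 5. The difference of -0.44 ± 0.18 (SE) was not called, and it was -0.24, -0.13 and -0.96 within numbers 5, 7 and 8, so number 8 carried most of it. Without knockout array 8 the difference was -0.26, and without knockout array 7 it was -0.58.

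Cd14, the co-receptor that hands lipopolysaccharide to Tlr4, read 539, 385 and 269 on knockout-labelled arrays, against 237, 266 and 351 on wild-type arrays. The groups overlapped at 0.43 ± 0.29 (SE), and the sign differed within the sample numbers, at 1.13, 0.51 and -0.36. The difference was 0.19 without knockout array 5 and 0.67 without knockout array 8. Cx3cr1 was near or below the control level. Its brighter probe set (1450020_at) read 394, 65.6 and 190 on knockout-labelled arrays, against 187, 127 and 138 on wild-type arrays, and only knockout array 5 stood out. Its other probe set (1450019_at) was not above the control level on any of the 6 arrays. The fractalkine receptor was thus read above the control level on 5 of the 6 arrays by 1 probe set and on none by the other.

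The promoter windows of 4 of these genes are printed as examples that hold a motif searched: Ccr2 and Ms4a6c, called higher, Ctss, which overlapped between the groups, and Mpeg1, which lay lower and was not called. Each runs from 250 bases before to 50 bases after a RefSeq transcription start on GRCm38.p6, 5′ to 3′ on the gene's strand. Capitals mark AAATCA, a core of Gfi1 sites, or GAGGAA, a purine-rich core of PU.1 sites, on either strand, so that TGATTT and TTCCTC are matches on the opposite strand.
Ccr2 promoter window, chr9:124101933-124102232, plus strand: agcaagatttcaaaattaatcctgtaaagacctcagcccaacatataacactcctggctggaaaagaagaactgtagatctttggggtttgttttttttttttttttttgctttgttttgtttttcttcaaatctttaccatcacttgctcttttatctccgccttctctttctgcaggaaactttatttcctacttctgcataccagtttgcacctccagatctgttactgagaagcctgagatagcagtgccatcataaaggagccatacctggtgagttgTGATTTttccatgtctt
Ms4a6c promoter window, chr19:11469118-11469417, plus strand: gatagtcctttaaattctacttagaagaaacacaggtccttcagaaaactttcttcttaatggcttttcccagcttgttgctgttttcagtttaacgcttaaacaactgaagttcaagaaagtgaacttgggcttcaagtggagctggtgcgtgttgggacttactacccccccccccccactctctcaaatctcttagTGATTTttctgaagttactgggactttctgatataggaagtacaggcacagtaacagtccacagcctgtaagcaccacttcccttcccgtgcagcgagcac
Mpeg1 promoter window, chr19:12460520-12460819, plus strand: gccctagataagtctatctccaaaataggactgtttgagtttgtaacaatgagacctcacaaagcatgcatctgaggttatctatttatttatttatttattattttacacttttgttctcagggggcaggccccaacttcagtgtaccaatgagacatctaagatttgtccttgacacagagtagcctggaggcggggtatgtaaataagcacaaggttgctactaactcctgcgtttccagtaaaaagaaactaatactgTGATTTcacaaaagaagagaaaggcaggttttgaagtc
Ctss promoter window, chr3:95526536-95526835, plus strand: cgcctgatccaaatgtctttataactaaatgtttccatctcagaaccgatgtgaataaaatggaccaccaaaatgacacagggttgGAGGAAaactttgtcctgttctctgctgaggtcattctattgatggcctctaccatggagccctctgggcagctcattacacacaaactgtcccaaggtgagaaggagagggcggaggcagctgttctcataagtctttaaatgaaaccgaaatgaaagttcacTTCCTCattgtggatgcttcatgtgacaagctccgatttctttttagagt

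In these windows AAATCA was found once each in Ccr2 (starting 34 bases after the start site), Ms4a6c (51 before it) and Mpeg1 (13 after it). These letters thus stood beside 2 genes that were called higher and beside 1 that lay lower. GAGGAA was found 2 times in Ctss, and also in both start windows of F13a1. Over the 9 windows of 8 genes that were searched, AAATCA was in 3, GAGGAA in 3 and TTGCNNAA, a C/EBP pattern, in 0. Csf1r and Cd14 were not searched. Of all 32851 RefSeq windows 14.0% held AAATCA, 28.3% GAGGAA and 10.8% TTGCNNAA, counted on both strands, and no matches of different motifs overlapped in the windows searched. Such matches describe letters and are not binding sites.

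Other monocyte and macrophage genes were mostly higher, with few of them called. Of 47 such genes in the fit, each represented by its brightest probe set, 4 rose (Clec7a, Ctsz, Ccl6 and Fcgr3) and 1 fell (Gpr65), where the background was 1.41% and 2.49% of 8239 genes. The median was 0.28, with 35 genes above 0, beside -0.01 over all genes in the fit. This list and the other gene lists were chosen with earlier results of these data known, so nothing is read from their contrast with the background. Clec7a, the fungal beta-glucan receptor dectin-1, read 1725, 2247 and 1725 on knockout-labelled arrays, against 751, 713 and 836 on wild-type arrays. It rose by 1.28 ± 0.19 (SE, limma adjusted p = 0.00289) and was called in every alternative.

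Ctsz, a lysosomal carboxypeptidase, rose by 1.12 ± 0.22 (SE), with 3764, 5721 and 7348 on knockout-labelled arrays, against 2305, 2234 and 2956 on wild-type arrays (limma adjusted p = 0.0166). Of the other Ctsz probe sets in the fit, 1 was called (0.76, adjusted p = 0.0446) and 1 overlapped between the groups and was not (0.90, 0.0819). Ccl6, a myeloid chemokine, rose by 1.36 ± 0.28 (SE), with 418, 317 and 419 on knockout-labelled arrays, against 120, 137 and 162 on wild-type arrays (limma adjusted p = 0.0190). Wild-type array 5 was there below its control level (162). The other Ccl6 probe set, too dim for the fit, overlapped between the groups (165, 133 and 215 on knockout-labelled arrays, 145, 135 and 144 on wild-type arrays). Fcgr3, a low-affinity receptor for immunoglobulin G, rose by 1.09 ± 0.25 (SE, limma adjusted p = 0.0285). On the brightest probe sets of Ctsz, Ccl6 and Fcgr3 the knockout-labelled arrays lay wholly above the wild-type ones. But each lost its call without knockout array 8 and without wild type 7 (adjusted p with 1 array left out up to 0.0996, 0.0870 and 0.127). Gpr65, a proton-sensing receptor, fell by 1.27 ± 0.30 (SE, limma adjusted p = 0.0358), and its call was lost under all 3 other scalings (0.0523 to 0.0648). That call was also lost without knockout array 5 (0.0929) or 7 (0.0824) and without wild type 7 (0.136) or 8 (0.0763). With no filter (0.104) and with eBayes without trend (0.0852) it was lost too. In a fit blocked on the sample number 7 genes of this list rose and 2 fell, and without knockout array 8 only 1 rose, against 6 without wild type 8.

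**Figure D3:**
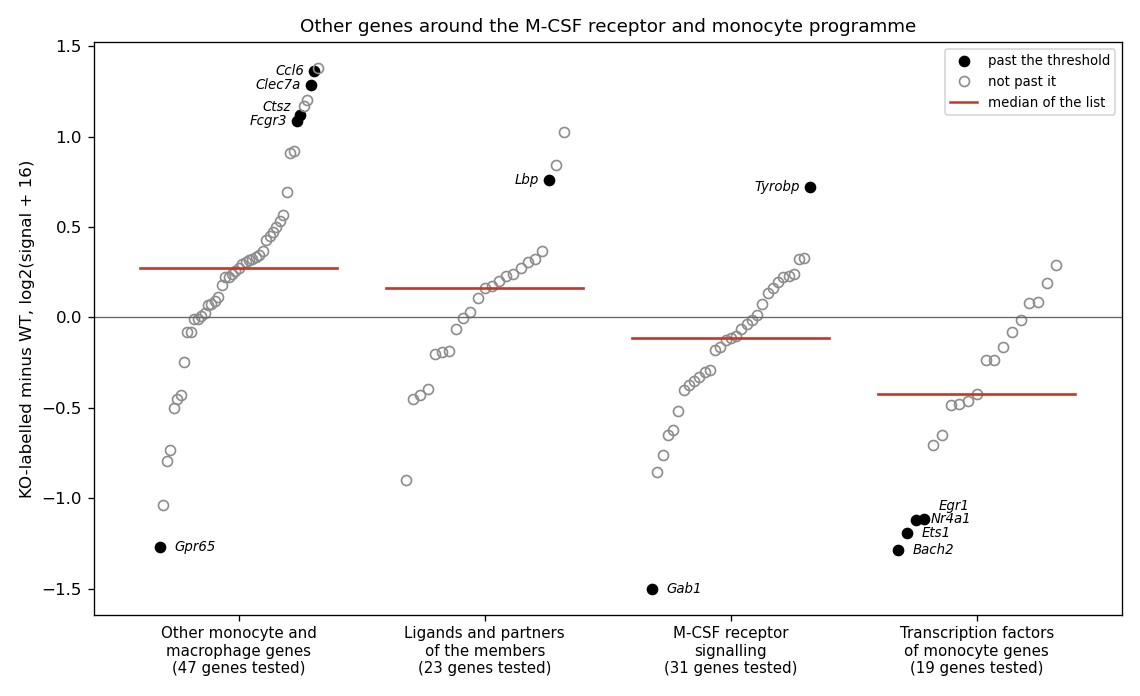
Difference between the groups, knockout-labelled minus wild type on the log2(signal + 16) scale, for each gene of 4 lists that entered the fit, ordered by size within each list. Filled points with names are called, open points are not, and red lines are list medians (0.28, 0.16, -0.11 and -0.42 from left to right).

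Neighbouring family members of Ms4a6c and Ccr2 were read as well, chosen after their values were seen. Along chromosome 19, Ms4a3, a gene of granulocyte-monocyte progenitors, rose by 1.71 ± 0.37 (SE, limma adjusted p = 0.0242), with means of 3811 ± 936 on knockout-labelled and 1352 ± 1047 on wild-type arrays (SD, n = 3 each). Ms4a7 stood at 1.17 ± 0.35 (adjusted p = 0.0870), Ms4a4c at 0.45, Ms4a4b at 0.31, Ms4a6b at 0.30 and Ms4a2, a chain of the high-affinity IgE receptor, at -0.07. Ms4a6d, too dim for the fit, read 353, 364 and 342 on knockout-labelled arrays, against 164, 21.3 and 145 on wild-type arrays, and Ms4a4d was above the control level on none. Ccr1, which lies close to Ccr2 on chromosome 9, read 453, 375 and 439 on knockout-labelled arrays, against 314, 167 and 148 on wild-type arrays. Its difference of 1.02 ± 0.30 (SE) was not called (adjusted p = 0.0818, and 0.0485 in the blocked fit). Ccr3 was above the control level on 0 knockout-labelled arrays and 1 wild-type array.

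Among ligands and partners of the 10 genes, Lbp alone was called. Of 23 in the fit 1 rose and 0 fell (over all genes 1.41% and 2.49%), 14 lay above 0 and the median was 0.16, with -0.01 without wild type 7 and 0.05 without knockout array 5. Lbp, the lipopolysaccharide-binding protein that loads Cd14, rose by 0.76 ± 0.18 (SE, limma adjusted p = 0.0318) and lost its call without any 1 of knockout arrays 5, 7 and 8 or wild-type arrays 5, 7 and 8 (up to 0.152). The receptor side of Cd14 and Ly86 stood near 0 or lower, with Tlr4 at -0.45 ± 0.27 (adjusted p = 0.390), its partner Ly96 at -0.19 ± 0.29 (0.789) and Cd180 at -0.00 ± 0.24 (0.997). Cd180 and Irf8 changed sign in some alternatives. Il34, the second ligand of Csf1r, and Ccl2, the main ligand of Ccr2, were too dim to enter the fit. Il34 read 161, 115 and 121 on knockout-labelled arrays, against 97.8, 143 and 142 on wild-type arrays, and Ccl7 and Ccl12 were above the control level on no array.

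Of the signalling proteins around the M-CSF receptor, Gab1 fell and Tyrobp rose. Of 31 in the fit 1 rose and 1 fell (over all genes 1.41% and 2.49%), 11 lay above 0 and the median was -0.11. Gab1, a docking adaptor for growth factor receptors, read 409, 426 and 416 on knockout-labelled arrays, against 982, 1351 and 1332 on wild-type arrays. It fell by 1.50 ± 0.21 (SE, limma adjusted p = 0.00193), it was called in every alternative, and its second probe set in the fit fell by 1.14. Tyrobp, the adaptor DAP12 of myeloid receptors, rose by 0.72 ± 0.17 (SE, limma adjusted p = 0.0332), with 5781, 5864 and 6324 on knockout-labelled arrays, against 3680, 3005 and 4320 on wild-type arrays. That call held without wild type 8 and was lost without any other 1 array and with median centring (0.0508). Sla stood at -0.85 ± 0.25 (adjusted p = 0.0812, and 0.0431 in the blocked fit), Dok2 at -0.62 ± 0.19 (0.0844) and Pik3r1 at -0.76 ± 0.26 (0.130).

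Among transcription factors that act on Csf1r or in monocyte commitment, the 4 that were called fell. Cebpa, Cebpb and Maf were too dim for the fit. Of these Cebpa, named after its values were seen, lay higher without overlap. Of 19 in the fit 0 rose and 4 fell (over all genes 1.41% and 2.49%), 4 lay above 0 and the median was -0.42, ranging from -0.50 to -0.22 with 1 array left out (-0.22 without wild type 5 and -0.26 without knockout array 8). Cebpa, which encodes the C/EBP alpha factor of granulocyte and monocyte commitment, read 180, 133 and 340 on knockout-labelled arrays, against 50.1, 45.4 and 83.6 on wild-type arrays. It was above the control level on 2 knockout-labelled arrays and on 0 wild-type arrays. Taking for each wild-type array the higher of its control level and its own signal, it was 1.65-fold higher in the knockout-labelled arrays. Knockout array 7 was itself below its control level (158), so 1.65 is not a lower bound. Cebpb read 212, 124 and 131 on knockout-labelled arrays, against 116, 200 and 286 on wild-type arrays, and the groups overlapped. Maf was above the control level on no array. Spi1, which encodes PU.1, read 809, 665 and 735 on knockout-labelled arrays, against 634, 517 and 652 on wild-type arrays, a difference of 0.29 ± 0.21 (SE, adjusted p = 0.494). Irf8, a factor of the monocyte and dendritic lineages, stood at 0.08 ± 0.18 (adjusted p = 0.856). The 4 that fell were Nr4a1, Ets1, Egr1 and Bach2, and without wild type 7 only 1 fell. Nr4a1, a nuclear receptor needed for patrolling monocytes, fell by 1.12 ± 0.15 (SE, limma adjusted p = 0.00124) in every alternative. Ets1, an ETS factor of lymphoid cells, fell by 1.19 ± 0.22 (0.0120, and 0.0553 without wild type 7), while 1 of its 3 probe sets in the fit stood at -0.33 and was not called. Egr1, an immediate early factor that promotes macrophage differentiation, fell by 1.12 ± 0.22 (0.0142, and up to 0.0923 with 1 array left out). Bach2, which restrains myeloid genes in lymphoid progenitors, fell by 1.29 ± 0.28 (0.0224, and up to 0.116 with 1 array left out). Elf1 stood at -0.65 ± 0.20 (0.0873, and 0.0390 in the blocked fit).

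Genes whose array-by-array pattern was most like that of Csf1r and Ccr2 were taken from 8230 other genes, by the root mean square gap between log2 values centred on each gene's mean over the 6 arrays. For Csf1r the 5 closest were Prep, Tomm40, Trip13, Lrp1 and Frmd4b, with gaps of 0.09 to 0.10 beside a median of 0.47, and none of the 5 was called. For Ccr2 they were Csf2rb2, Mmp8, Lgals1, Csf2rb and Clec4e, with gaps of 0.25 to 0.46 beside a median of 1.14. All 5 of these were called higher, and they include both mouse beta chains of the IL-3 receptor. The lists share no gene, and the measure follows the group difference as well as the order within groups.

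Markers of the sort and of other cells were read on the same arrays. All 10 LSK genes matched were above the control level on every array, 0 of them rose and 3 fell (over all genes 1.41% and 2.49%). These were Hlf (-1.26, limma adjusted p = 0.00268), Flt3 (-1.19, 0.00515) and Kit, one of the sorting markers (-0.71, 0.0381). The summed LSK signal ran from 31445 to 36010 on knockout-labelled arrays and from 37762 to 45390 on wild-type arrays, and overlapped without Kit or without Flt3. Summed neutrophil markers ran from 9515 to 19291 on knockout-labelled arrays and from 24045 to 47301 on wild-type arrays, with 1 of 11 called higher and 5 called lower. Erythroid markers summed to 8371 to 10672 on knockout-labelled arrays, against 18514 to 33017 on wild-type arrays. Much of this sum was Car2, with means of 4224 on knockout-labelled and 14028 on wild-type arrays. Of the 8 erythroid genes in the fit 2 lay above 0. Dendritic markers summed to 7140 to 9519 on knockout-labelled arrays, against 11543 to 14169 on wild-type arrays, but without Flt3, which is also in the LSK list, the groups overlapped (4515 to 7277 on knockout-labelled and 5696 to 10193 on wild-type arrays). Mast cell, basophil and eosinophil markers summed to 9613 to 12436 on knockout-labelled arrays and to 6108 to 9803 on wild-type arrays. Without Epx the knockout-labelled sums lay wholly higher (9483 to 12268, against 5982 to 9299 on wild-type arrays), as they did without Prg2. T and NK cell markers summed to 4955 to 5455 on knockout-labelled arrays and to 4212 to 4390 on wild-type arrays, with Cd4 and Cd8b1 above the control level on none. Without Nkg7 these sums overlapped (2461 to 3205 on knockout-labelled and 2452 to 2748 on wild-type arrays), as they did without Thy1. B and plasma cell sums overlapped between the groups (29525 to 44560 on knockout-labelled and 27107 to 36850 on wild-type arrays). In the fit, 1 of 8 erythroid genes (Car2) was called lower and 0 higher. Of 9 genes of the dendritic list 2 were called lower and 0 higher. These were Flt3, also in the LSK list, and Klrd1, which NK cells also express. Of 8 mast cell, basophil and eosinophil genes 1 (Hdc) was called higher and 0 lower. Calls numbered 0 among 5 T and NK genes and 0 among 10 B and plasma cell genes. Klrd1 is not in the T and NK list. The part of these cells in the differences of Csf1r, Ccr2 and Ms4a6c was not tested.

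**Figure D4:**
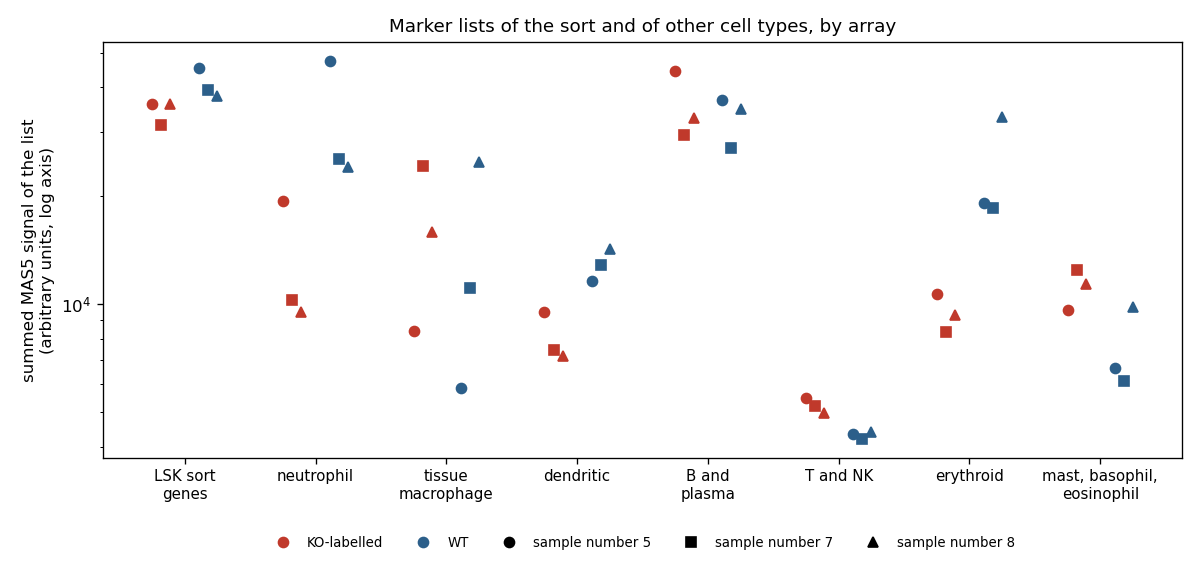
Summed signal of 8 marker lists on each array, in arbitrary units on a log axis, with knockout-labelled arrays (red) left of wild-type arrays (blue) and marker shapes for sample numbers. The neutrophil, erythroid, dendritic and LSK sums lie lower on all knockout-labelled arrays, the T and NK sum lies higher, and the tissue macrophage, B cell and mast cell sums overlap.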

How the data were processed

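Signals were the series' deposited table of intensity values, which the authors made with MAS5, per the submitters' processing notes, and which were used as deposited on a linear, already scaled range. MAS5 uses mismatch probes, which makes dim values noisy. After 2 rounds of amplification, probe sets far from the 3′ end read lower. Here 64 array controls were left out, log2(signal + 16) was taken and the 60% of probe sets brightest by mean were fitted with limma 3.58.1 (R 4.3.3, trended eBayes, two-sided, Benjamini-Hochberg). The arrays' number limits the precision. The fit has no block. The labels do not say whether samples of equal number are pairs. Knockout-labelled and wild-type deviations correlated at 0.159, 0.168 and 0.238 within numbers 5, 7 and 8, and at -0.134 to -0.031 across numbers. Deviations within groups of 3 are not independent, so these values do not settle the pairing. A fit blocked on the number was therefore run as an alternative. The code was tested on simulated data. The members and gene lists were chosen with earlier results of these data known. Named genes were every member probe set, the 5 genes of smallest p in each of 4 lists, 7 genes named in any case (Il34, Spi1, Irf8, Ly96, Cd180, Tlr4 and Ccl2), Gfi1 and the 5 genes most like Csf1r and Ccr2. Genes outside this rule, such as Cebpa, were named after their values were seen. Lists held 297 entries, of which 248 matched a probe set with 1 symbol. Of the 22626 probe sets, 20380 had 1 symbol, 691 several and 1555 none. Probe names come from the platform annotation and promoters from RefSeq. Alternatives were the block, pseudocounts 1 and 64, other filters, 3 scalings, eBayes without trend and each array left out.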

Additional observations from a re-analysis of the deposited data

How the results depend on the processing

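Of 270 alternative values of the 18 member differences, 269 moved by less than the spread between replicates. The block, the other filters and eBayes without trend cannot change a difference, so their values are among the 269 by construction. That spread was wide enough for sign changes of differences near 0 with 1 array left out. Csf1 1448914_a_at ran from -0.03 to 0.47, Csf1 1425155_x_at from -0.58 to 0.44, Cx3cr1 1450020_at from -0.34 to 0.82 and Ly86 from -0.26 to 0.34. Ccr2 1421186_at and Ms4a6c were called under all 15 alternatives. With 1 array left out the list medians ran from 0.18 to 0.29 for other monocyte genes, -0.01 to 0.21 for partners, -0.18 to -0.09 for signalling and -0.50 to -0.22 for regulators. Calls over all probe sets (196 higher and 297 lower) became 320 and 479 with the sample number as a replicate block, 69 and 119 with no filter on low values, and 57 and 124 with eBayes without trend. Median centring gave 193 lower. With 1 array left out they ran from 34 to 266 higher and from 90 to 282 lower. The member probe sets called higher were 3 without trend and 2 to 5 with 1 array left out (2 without knockout array 7 or 8), and those called lower 0 throughout. With the block, calls became 7 higher and 2 lower among other monocyte genes, 2 higher among partners, 2 lower among signalling genes and 7 lower among regulators. The block changed no call of a member. With no filter, and with no trend, they were 2 higher and 0 lower among monocyte genes, 0 higher among partners, 0 higher in signalling and 2 lower among regulators. Median centring gave 0 higher in signalling and among partners and 0 lower among monocyte genes, as did quantile and cyclic loess normalization for the last. With 1 array left out the ranges were 1 to 6 higher and 0 to 1 lower among monocyte genes, 0 to 1 higher among partners, 0 to 1 higher and 1 to 2 lower in signalling, and 1 to 5 lower among regulators. Counting every probe set gave 2 lower in signalling. Gfi1 ran from 0.45 to 1.10 with 1 array left out. Irf8 turned to -0.0389 without knockout array 7, and with 1 array left out ran from -0.0389 to 0.205. Cd180 turned to 0.0518 with median centring, 0.0579 with quantile and 0.0282 with cyclic loess normalization, and with 1 array left out ran from -0.164 to 0.18. Over all probe sets, counts fell with most single arrays left out, but without wild type 8 the higher calls rose to 266. Causes of these changes were not tested. Signals near the control level limit Cx3cr1 and 2 probe sets of Csf1.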
